A study of Mus musculus with 9 samples.

Results

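The motile cilium genes described here were 73 of the 32195 genes in the count table of mouse epididymal single cells. They were taken by name only: every symbol that starts with Dnah (16 genes), Dnai (2), Cfap (33), Tekt (5), Rsph (8) or Drc (3), and 6 genes named singly, Foxj1, Ccdc153, Sntn, Tmem212, Dynlrb2 and Fam183b. The rule uses names and no level. The cells came from untreated C57BL/6 male mice, and each library held the caput, the corpus or the cauda of 1 pool of mice. At 42 days of age (P42) there was 1 pool, and at 56 days (P56) there were 2, called replicates 1 and 2, which gave 9 libraries. Sperm were not depleted, so the libraries held the somatic cells of the duct wall and the sperm in its lumen. Age and pool cannot be told apart at P42, and mice were pooled, so animals within a pool cannot be compared. Throughout, 3 values of a segment are given in the order P42, P56 replicate 1, P56 replicate 2.

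The table held 44869 barcodes, of which 42087 passed the filter (300 to 4000 genes, at most 20000 UMIs and under 50% mitochondrial UMIs), and 41406 remained once 681 globin-rich cells were set aside. Library totals ran from 23114756 to 50655384 UMIs, and the median cell held 3088.5 UMIs in the P42 cauda and 7644 in the P56 replicate 2 cauda, the lowest and highest of the 9. Of 41926 barcode sequences, 116 occurred in 2 or more libraries. A UMI marks 1 captured transcript, so levels are given as CPM, the UMIs of a gene per 1000000 UMIs of a population, and are not divided by gene length. Cells were clustered without the 73 genes and named from markers that did not include them. The ciliated-like cluster had 23 of 25 ciliated markers at least 2-fold above the rest of the cells as a whole, and 0 of 12 sperm markers. This rule does not compare a cluster with each other cluster, and some ciliated markers were higher in a sperm cluster described below. Names such as principal cells are used in the same sense, for clusters that resemble the type in its markers.

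Motile cilia and sperm tails share one core, the axoneme, a ring of doublet microtubules around a central pair. Dynein arms of the Dnah heavy chains slide the doublets, radial spokes and the nexin-dynein regulatory complex pass signals to them, tektins run inside the doublet wall, and Foxj1 is the transcription factor that switches on the motile cilium program in epithelial cells. In the male tract beating cilia are best known from the efferent ducts that lead into the caput, whereas the long stereocilia of the epididymal duct are actin-based and have no axoneme.

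Promoters are shown for 5 genes that held a match to one of 3 motifs of ciliary regulators, 4 that differ between ciliated-like cells and sperm and Cfap298, the 1 gene with the X-box match. RefSeq (GRCm38.p6) gave the 250 bases before the start for 60 of the 73 genes. The motifs were searched on both strands: the forkhead core TGTTTAC, the RFX box GTTGCCATG, and the palindromic X-box core, which is GTTNCC, 2 free positions and GGNAAC. Of the 60 genes, 5 (8.33%) held the forkhead core, 4 (6.67%) the RFX box and 1 (1.67%) the X-box core, beside 3.54%, 0.733% and 0.444% of all 27025 genes with such a sequence. The forkhead matches were in Sntn, Tekt3, Dnah17, Cfap20 and Cfap43, the RFX box matches in Sntn, Cfap97d2, Cfap74 and Cfap161, and the X-box match in Cfap298. Sequences run 5′ to 3′ on the strand of the gene, and capitals mark the matches. They lie at chr14:13670626-13670875 (plus strand) for Sntn, chr8:13705639-13705888 (plus) for Cfap97d2, chr11:63061409-63061658 (plus) for Tekt3, chr11:118129220-118129469 (minus) for Dnah17 and chr16:90934850-90935099 (minus) for Cfap298. Starts are those of RefSeq and differ from GENCODE for some genes. In GENCODE Dnah17 spans chr11:118021723-118130634 and Cfap298 chr16:90925809-90935114, so both stretches lie inside the gene there.
Sntn: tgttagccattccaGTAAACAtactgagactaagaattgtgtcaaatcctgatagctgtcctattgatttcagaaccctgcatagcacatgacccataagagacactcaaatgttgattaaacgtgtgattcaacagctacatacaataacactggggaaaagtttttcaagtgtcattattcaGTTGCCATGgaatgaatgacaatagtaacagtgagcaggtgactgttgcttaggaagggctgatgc
Cfap97d2: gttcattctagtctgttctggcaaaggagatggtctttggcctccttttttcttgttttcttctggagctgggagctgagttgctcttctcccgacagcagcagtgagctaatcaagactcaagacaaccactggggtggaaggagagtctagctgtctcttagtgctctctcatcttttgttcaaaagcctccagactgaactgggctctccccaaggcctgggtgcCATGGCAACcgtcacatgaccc
Tekt3: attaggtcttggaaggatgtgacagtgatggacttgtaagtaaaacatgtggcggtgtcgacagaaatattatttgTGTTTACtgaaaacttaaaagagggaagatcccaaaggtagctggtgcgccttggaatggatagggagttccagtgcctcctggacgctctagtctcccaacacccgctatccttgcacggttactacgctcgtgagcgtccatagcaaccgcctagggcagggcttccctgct
Dnah17: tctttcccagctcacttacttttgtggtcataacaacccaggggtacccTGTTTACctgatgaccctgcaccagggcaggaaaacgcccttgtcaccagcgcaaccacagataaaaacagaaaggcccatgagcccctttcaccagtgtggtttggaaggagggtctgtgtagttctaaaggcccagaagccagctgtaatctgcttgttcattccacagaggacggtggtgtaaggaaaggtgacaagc
Cfap298: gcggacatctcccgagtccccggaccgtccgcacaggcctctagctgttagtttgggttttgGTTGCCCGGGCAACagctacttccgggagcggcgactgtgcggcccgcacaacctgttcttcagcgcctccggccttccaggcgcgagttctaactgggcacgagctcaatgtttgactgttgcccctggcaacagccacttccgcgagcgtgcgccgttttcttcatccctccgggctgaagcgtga
Sntn, which encodes a protein of the ciliary tip, was the one gene of the 60 with a match to more than 1 motif. The first 2 of these promoters belong to genes high in ciliated-like cells, Tekt3 and Dnah17 to genes high in sperm, and Cfap298, a factor of dynein arm assembly, to a gene within 2-fold between them. A match is a string of letters, and binding was not measured.

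Cilium genes were concentrated in 192 ciliated-like cells of the caput and in part of the sperm. Ciliated-like cells made up 111 of 4089 cells of the P42 caput (2.72%, 95% exact interval 2.24 to 3.26), 23 of 4846 in P56 replicate 1 (0.475%, 0.301 to 0.711) and 58 of 4896 in P56 replicate 2 (1.19%, 0.901 to 1.53). The 3 intervals did not overlap, and they cover counting error only. No such cell was found in the corpus or cauda, where a count of 0 allows a share of up to 0.0619% to 0.0701% in the 6 libraries. Summed principal cell markers stood at 42390.0 to 97820.0 CPM in the ciliated-like cells of the 3 libraries, within the 13080.0 to 162600.0 of principal cells, and their part in the levels below was not tested.

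The 73 genes together took 7585, 5079 and 7622 CPM in ciliated-like cells (mean 6762 ± 1458, SD, n = 3 libraries). The 841 sperm fell into 2 clusters, which differed widely in these genes. The first, with 221 cells, was led by Ldhc, the lactate dehydrogenase of the germ line, and Cox8c. Its summed level was 10300.0, 8254 and 6930.0 in the caput and 11940.0, 6898 and 5825 in the corpus, in or above the range of ciliated-like cells. The P42 caput held 8 of these cells and the P56 replicate 1 corpus 9, both under the limit of 10 set for comparisons, and the P42 corpus held 11. The second, with 620 cells, was led by the protamines Prm2 and Prm1, which pack DNA in the sperm head, and held 440.4 CPM over all its cells. That is close to the 364 ± 84.9 (SD, n = 9) of principal cells, the main absorptive and secretory cells of the duct, and the other named somatic types lay between 303.5 and 387 over all their cells.

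The same split was seen cell by cell. The median ciliated-like cell had UMIs of 17 of the 73 genes, the median Ldhc-led sperm of 19 and the median Prm2-led sperm of 1, at median depths of 5856.5, 6455 and 4462 UMIs. At least 10 of the genes were found in 147 ciliated-like cells (76.6%), 168 Ldhc-led sperm (76.0%) and 3 Prm2-led sperm (0.484%). Of the 40373 cells outside these clusters 17 reached that number, 15 of them in the caput and 2 in the corpus. The Ldhc-led cluster also had 18 of 25 ciliated markers and 12 of 12 sperm markers at least 2-fold above the rest of the cells as a whole. It is called by its leading gene here because ciliated markers do not tell it from ciliated cells. It held 888 CPM of Prm2 and 3995 of Ldhc, against 5419 and 104 in the Prm2-led cluster. The labels do not say at which stage these germ cells were, so the word sperm stands for both clusters only in the sense of the marker list, and folds against sperm and shares of sperm below carry that limit.

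**Figure D1:**
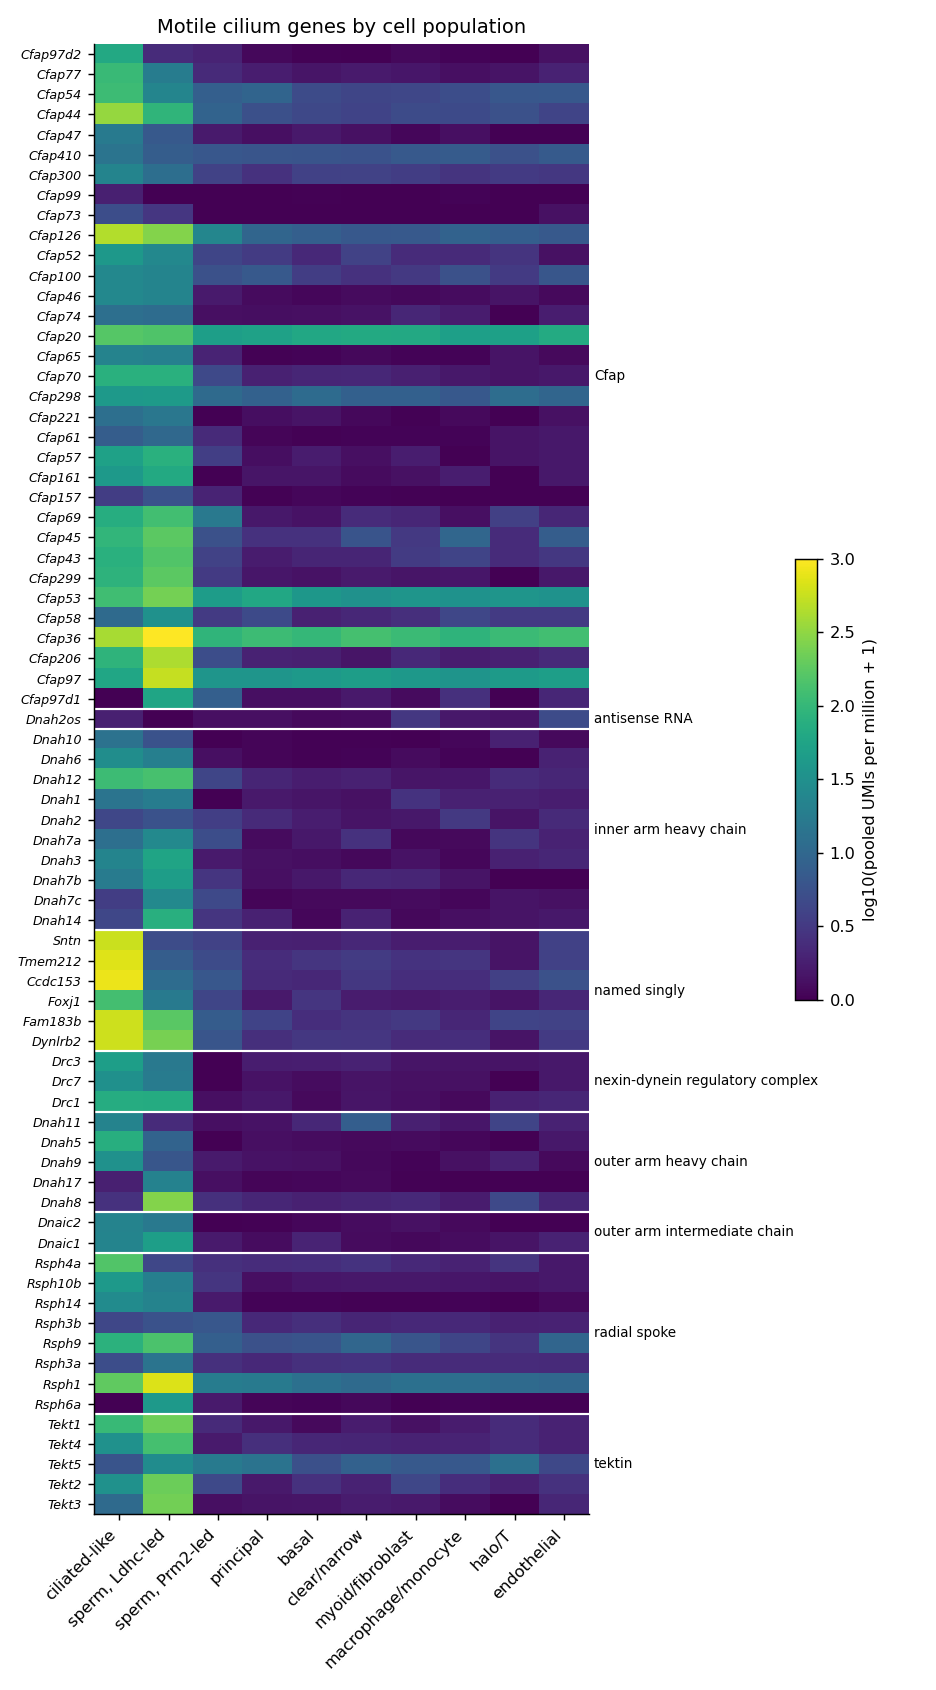
Levels of the 73 motile cilium genes in 10 cell populations, as log10 of CPM + 1 over all cells of a population, with genes grouped by their place in the axoneme. The columns of ciliated-like cells and Ldhc-led sperm are brighter for most genes, while Prm2-led sperm and the somatic types are dark except for a few Cfap genes such as Cfap36.

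By the population with the highest level, the 73 genes divided almost evenly: 36 were highest in Ldhc-led sperm and 34 in ciliated-like cells. The other 3 were Rsph3b (Prm2-led sperm), Tekt5 (unnamed cells) and Dnah2os, an antisense RNA of Dnah2, which was highest in endothelial cells at 3.88 CPM. The strand used in counting is not given, so reads of Dnah2 and Dnah2os cannot be told apart. All 6 genes named singly and all 3 Drc genes were highest in ciliated-like cells (Drc1 narrowly, at 71.3 against 69.4), and 8 of 10 inner arm heavy chains and 4 of 5 tektins in Ldhc-led sperm. The 33 Cfap genes were split 16 to 17 between ciliated-like cells and Ldhc-led sperm, the outer arm heavy chains 3 to 2, the intermediate chains 1 to 1 and the spoke genes 3 to 4. These are levels of clusters of the same cells and were not tested. No lower limit on UMIs was set, so some places rest on few UMIs or near ties. Cfap99 had 1 UMI and Cfap73 had 5 in ciliated-like cells, and Cfap70 stood at 79.6 there and 80.0 in Ldhc-led sperm. Of the 25 UMIs of Dnah11 in ciliated-like cells, 21 came from the P42 caput. Clear/narrow cells came next for Dnah11, at 6.89 CPM against 20.7.

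Ccdc153, Sntn and Tmem212 were high in ciliated-like cells and nearly absent from sperm. Ccdc153, a coiled-coil protein of the axoneme, stood at 892, 420.0 and 823 CPM in ciliated-like cells, and at 0, 0 and 16.2 in Ldhc-led sperm of the same caput libraries. Sntn stood at 632, 433 and 532 against 0, 0 and 6.08, and Tmem212 at 749.7, 433 and 739 against 0, 0 and 10.1. The groups of libraries did not overlap for any of the 3. Foxj1 was lower than these 3 genes in ciliated-like cells, at 140.4, 59.1 and 126, and stood at 19.2, 8.94 and 15.2 in Ldhc-led sperm, a 7.65-fold difference over the pair of P56 libraries. Dynlrb2, a light chain of cytoplasmic and ciliary dyneins, was shared, with 588, 525 and 633 against 249, 264 and 251 (2.38-fold). Fam183b lay between, at 524.5, 512 and 741.5 against 57.5, 169.9 and 167. The P42 caput gave 8 Ldhc-led cells, so folds between the populations are taken over the P56 libraries.

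Shares of cells followed the levels. Ccdc153 was found in 77.1% of ciliated-like cells, 2.26% of Ldhc-led sperm and 0.781% of principal cells, at median depths of 5856.5, 6455 and 6058 UMIs. With every cell thinned to 1000 UMIs the shares were 45.8%, 0.905% and 0.128%. Sntn was found in 70.8% of ciliated-like cells and 0.521% of principal cells, and Foxj1 in 38.0% of ciliated-like cells, 9.96% of Ldhc-led sperm and 0.40% of principal cells. Free RNA gives UMIs in cells that do not express a gene. In the other cell types of the caput, the levels of Ccdc153, Sntn, Tmem212, Dynlrb2 and Fam183b were 0 to 2.75% of those in the ciliated-like cells of the same library, with medians of 0.848%, 0.356% and 0.438% in the 3 libraries.

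Outer arm heavy chains divided between the 2 populations. Dnah5, the heavy chain of the outer arm in airway-type cilia, stood at 71.0, 105.0 and 69.0 CPM in ciliated-like cells and at 0, 0 and 9.12 in Ldhc-led sperm (10.6-fold). Its partner chains Dnah9 (40.1, 19.7 and 22.2) and Dnah11 (32.4, 6.56 and 7.39) were also higher there than in Ldhc-led sperm, which held 19.2, 8.94 and 4.05 of Dnah9 and 0, 0 and 1.01 of Dnah11. These rest on few UMIs, with 1 and 3 of Dnah11 in P56 ciliated-like cells and 1, 2 and 4 of Dnah9 in Ldhc-led sperm. The sperm counterpart Dnah8 (chr17:30624354-30877365, GRCm38) was at 153, 331 and 302 in Ldhc-led sperm and at 0, 6.56 and 2.46 in ciliated-like cells, where the latter values are 1 UMI each, so no fold is given. Dnah17, the other sperm outer arm chain, stood at 19.2, 35.8 and 11.1 in Ldhc-led sperm, against 0, 0 and 2.46 in ciliated-like cells. Dnah8 was found in 49.8% of Ldhc-led sperm, 1.04% of ciliated-like cells and 0.730% of principal cells. The share in ciliated-like cells was close to that in principal cells and rests on 2 UMIs, whose source was not tested.

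Radial spoke heads showed the same exchange of a pair of related genes. Rsph4a (chr10:33905111-33916021), a head protein of cilia, stood at 157, 105.0 and 158 in ciliated-like cells and at 0, 0 and 4.05 in Ldhc-led sperm (43.4-fold). Rsph6a (chr7:19054690-19074447), its sperm relative, had no UMI in ciliated-like cells and stood at 57.5, 35.8 and 42.6 in Ldhc-led sperm. That is at least 7.69-fold higher in sperm, with 3 UMIs over the P56 ciliated-like cells taken as the floor. Rsph1 was found in both, at 199, 144 and 179.8 in ciliated-like cells and, without overlap, at 766, 966 and 655 in Ldhc-led sperm. Rsph9 stood at 63.2, 59.1 and 126 against 229.8, 116 and 136, and was within 2-fold over the P56 libraries. Rsph3a and Rsph3b are nearly identical copies, so the split between them (4.14 and 3.31 in ciliated-like cells over all libraries, 13.2 and 4.63 in Ldhc-led sperm) is uncertain.

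Tektins were on the side of sperm. Tekt3 (chr11:63061654-63094964) stood at 402, 219 and 221 in Ldhc-led sperm and at 12.3, 0 and 9.85 in ciliated-like cells (30.8-fold). Tekt2 stood at 402, 192 and 185 against 40.1, 0 and 29.6, and Tekt4 at 191.5, 116 and 113.5 against 38.6, 13.1 and 29.6. Tekt1 differed least, with 249, 246 and 197.5 in Ldhc-led sperm and 120.3, 98.4 and 81.3 in ciliated-like cells (2.40-fold). For all 4 the values of the 2 populations did not overlap. Tekt5 was low in both, at 0, 22.4 and 27.4 in sperm and 4.63, 13.1 and 2.46 in ciliated-like cells.

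Among Cfap genes, the most abundant in Ldhc-led sperm was Cfap36, at 2107, 1565 and 1311 against 424, 321.5 and 409 in ciliated-like cells (3.53-fold), followed by Cfap97 (574.5, 626 and 499 against 66.3, 13.1 and 61.6) and Cfap206 (785, 411 and 373 against 100.3, 45.9 and 86.2). Ciliated-like cells held more of Cfap44 (324, 236 and 379 against 76.6, 121 and 84.1), and Cfap126 was at a like level in both (455, 302 and 509.9 against 364, 259 and 268.5). A pair of relatives of Cfap97 went to opposite sides. Cfap97d2 stood at 71.0, 52.5 and 56.7 in ciliated-like cells and at 0, 4.47 and 1.01 in Ldhc-led sperm. Cfap97d1 had no UMI in ciliated-like cells and stood at 0, 35.8 and 67.9 in Ldhc-led sperm, at least 11.5-fold higher over the P56 libraries.

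Inner arm heavy chains leaned towards sperm, with Dnah14 at 115, 107 and 74.0 in Ldhc-led sperm and 3.09, 0 and 4.93 in ciliated-like cells, and Dnah12 nearly shared (287, 192 and 137 against 136, 32.8 and 111). Dnah7a, Dnah7b and Dnah7c are near-identical copies and were each higher in Ldhc-led sperm, with 25.1, 45.6 and 25.1 over all its cells against 11.6, 16.6 and 2.49, though reads may be split among them.

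Against Ldhc-led sperm, 60 of the 73 genes had at least 20 UMIs in the 2 populations of the P56 caput. Of these, 15 were at least 2-fold higher in ciliated-like cells, 20 at least 2-fold higher in sperm and 25 within 2-fold. Of all 8632 genes with as many UMIs, 17.7% were at least 2-fold higher in ciliated-like cells and 31.2% in sperm. Against all sperm of the 3 caput libraries, 66 genes had 20 UMIs, and 27, 11 and 28 fell in these classes, beside 16.1% and 22.4% of 11444 genes at least 2-fold higher in ciliated-like cells and in sperm. By role and against Ldhc-led sperm, all 5 tektins and 5 of 8 inner arm chains were higher in sperm, all 6 genes named singly and 2 of 3 Drc genes were higher in ciliated-like cells, and the intermediate chains Dnaic1 and Dnaic2 were within 2-fold.

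**Figure D2:**
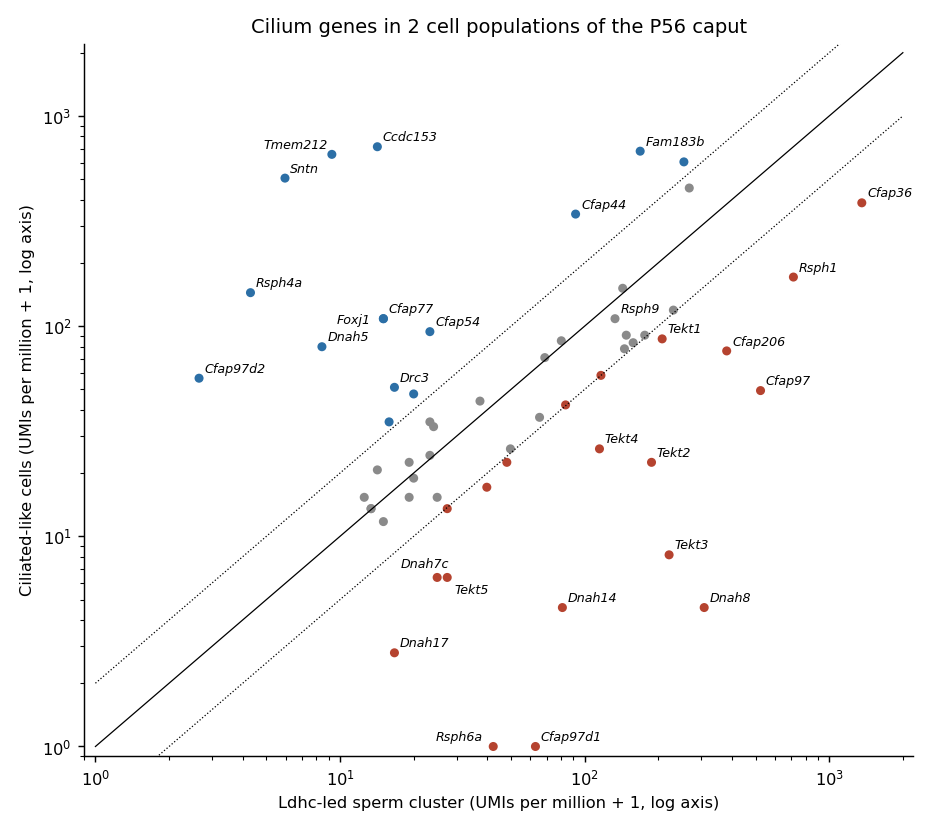
Level of each of 60 motile cilium genes in Ldhc-led sperm (x axis) and in ciliated-like cells (y axis) of the P56 caput, in CPM + 1 on log axes, with a solid line at equal levels and dotted lines at 2-fold. Sntn, Tmem212, Ccdc153 and Rsph4a lie far above the band, Dnah8, Tekt3, Cfap97d1 and Rsph6a far below it, and 25 genes lie inside.

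Along the duct, most of the genes that could be tested were higher in caput sperm than in cauda sperm. Cfap36 stood at 1166, 1102 and 671 CPM in caput sperm, 308, 196 and 247 in the corpus, and 51.8 and 70.1 in the cauda, where P56 replicate 1 had 7 sperm and was left out. The 3 segments did not overlap. Rsph1 stood at 426, 657.5 and 314, then 72.8, 133 and 91.1, then 46.0 and 0. Tekt3 stood at 213, 149 and 103, then 58.2, 12.5 and 34.5, and Dnah8 at 81.1, 225 and 142, then 16.4, 22.9 and 29.0, with no UMI of either in cauda sperm.

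Of the 73 genes, 32 passed the filter on low counts in sperm, and 28 of these were called between segments, 27 highest in the caput and 1, Tekt5, in the corpus. In the table as a whole 30.1% of 6445 genes were called, 19.2% with the highest level in the caput. A gene is called here at a Benjamini-Hochberg adjusted p under 0.05 in edgeR's quasi-likelihood test that takes the pool as a block, and a log2 difference of at least 1 between the highest and lowest segment. A gene that passed the filter through caput sperm alone had to differ, so the count says little by itself. From caput to cauda, Cfap36 fell by 3.79 ± 0.47 (log2 ± SE, edgeR adjusted p = 1.17e-05) and Rsph1 by 3.49 ± 0.60 (edgeR adjusted p = 0.000111). Over pooled cells these are falls of 12.8-fold and 12.4-fold.

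The 27 genes highest in the caput were 4 tektins (Tekt1 to Tekt4), the sperm outer arm chain Dnah8, the inner arm chains Dnah3, Dnah12 and Dnah14, the spoke genes Rsph1 and Rsph9, Drc1, Dynlrb2, Fam183b and 14 Cfap genes. Cauda sperm held 273617 UMIs in all, beside 2541400 in the caput and 1754240 in the corpus, and 49 of the 73 genes had no UMI there. With 3 UMIs over the group as the floor, 10.96 CPM, Dnah8 was at least 13.7-fold higher in caput than in cauda sperm, Dynlrb2 at least 12.1-fold, Tekt3 at least 10.3-fold, Tekt1 at least 9.59-fold and Dnah12 at least 7.07-fold. Tekt5 went another way, with 0, 15.2 and 14.2 in the caput, 23.7, 27.1 and 40.0 in corpus and 5.76 and 0 in cauda (log2 2.79 ± 1.23, edgeR adjusted p = 0.0417). Tekt5 missed the threshold with TMM factors set to 1 (adjusted p = 0.0615). In the same corpus libraries Tekt5 stood at 30.8, 39.4 and 41.6 in principal cells and at 12.2, 19.3 and 28.5 in non-epithelial cells, and the part of RNA from other cells in the sperm values was not tested. Cfap298 showed no such order, with 0, 39.6 and 18.9, then 18.2, 37.5 and 12.4, then 11.5 and 20.03, with overlapping segments and an edgeR adjusted p of 0.966.

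The make-up of sperm changed along the duct together with these levels. Ldhc-led cells were 57.1% of sperm in the P42 caput (8 of 14, exact interval 28.9 to 82.3), 67.4% in P56 replicate 1 (33 of 49, 52.5 to 80.1) and 46.6% in P56 replicate 2 (138 of 296, 40.8 to 52.5). They were 7.05%, 7.38% and 17.9% in the corpus, of 156, 122 and 123 sperm, and none of the 62, 7 and 12 sperm of the cauda. Within Prm2-led sperm 8 of the 73 genes passed the filter and 2 were called, Tekt5 (adjusted p = 0.00429) and Cfap69 (0.0255), beside 16.3% of all genes. Cfap36 there was at 108, 114 and 110.0 in the caput, 71.8, 89.7 and 79.0 in corpus and 51.8 and 70.1 in cauda (log2 0.43, edgeR adjusted p = 0.831). The P42 caput value is 5 UMIs in 6 cells, too few for that library to enter the test. Within Ldhc-led sperm, caput against corpus with no block, 0 of 29 were called by edgeR, 4 had an unadjusted p under 0.05, and 3.36% of all genes were called. Without the P42 pool 13 genes were called in all sperm, and the share of all genes called in that fit is not given. Markers of other cell types were present in sperm. Summed per library with at least 10 such cells, principal cell markers ran from 3402 to 69210.0 CPM in Ldhc-led and from 5491 to 119500.0 in Prm2-led sperm, and markers of myoid cells and fibroblasts from 232.5 to 1749 and from 425.8 to 33820.0. Their part in the segment and age results of sperm was not tested. In pooled counts, fewer cells of a kind and less RNA per cell cannot be told apart.

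**Figure D3:**
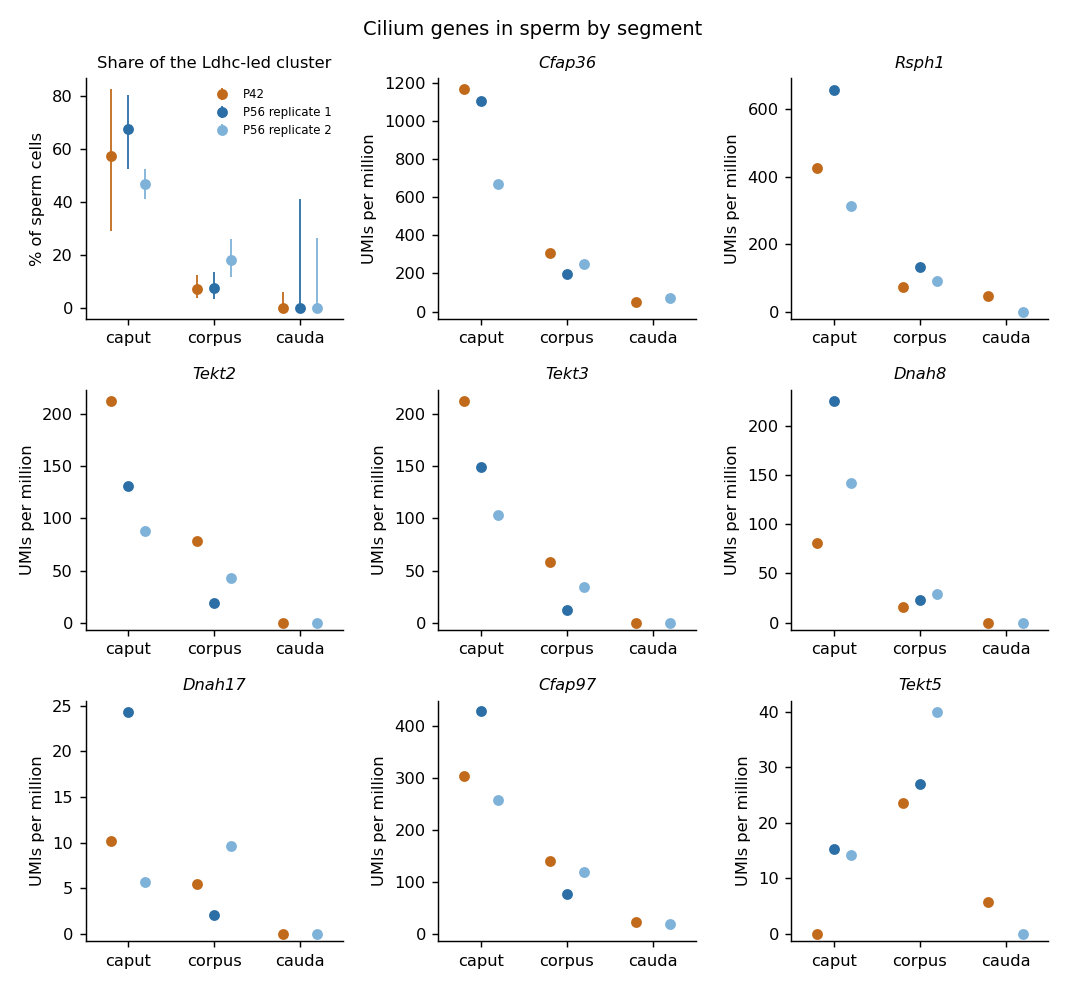
Share of sperm in the Ldhc-led cluster, in percent with 95% exact intervals, and CPM of Cfap36, Rsph1, Tekt2, Tekt3, Dnah8, Dnah17, Cfap97 and Tekt5 in sperm of the 8 libraries with at least 10 sperm, by segment. Cfap36, Rsph1, Cfap97, Tekt2, Tekt3 and Dnah8 are higher in every caput library than in any other, the caput and corpus overlap for Dnah17, and Tekt5 is highest in the corpus.

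In principal cells the genes were low, and a few of them marked segments. For the 21 genes with at least 100 UMIs in ciliated-like cells, the level in principal cells of the caput was a median of 0.949% of that in ciliated-like cells (0.307% to 65.0%). The 5 genes above 10% were Cfap53, Cfap36, Cfap20, Cfap54 and Rsph9. Cfap36 was the most abundant, at 173, 135.5 and 162 CPM in the caput, 84.2, 80.6 and 78.6 in corpus and 73.3, 75.8 and 80.4 in cauda. Its log2 difference of 0.86 between caput and corpus stayed under the limit of 1 (edgeR adjusted p = 0.00792).

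Of 48 genes that passed the filter in principal cells 25 were called between segments, beside 33.8% of all 15970 genes. Without P56 replicates 1 and 2, 14 and 15 were called, and the share of all genes in these fits is not given. Of the 25, 14 were highest in the caput, 5 in corpus and 6 in cauda, beside 14.1%, 10.2% and 9.48% of all genes. The clearest in the caput were Cfap54, a protein of the central pair (17.5, 18.2 and 16.6, then 0.315, 0.112 and 0.242 in the corpus, then 2.59, 1.84 and 2.37 in the cauda), and Cfap100 (15.8, 14.2 and 12.0, then 0.0559 to 0.105, then 0 to 0.215). Cfap54 fell by 6.27 ± 0.32 from caput to corpus (log2 ± SE, edgeR adjusted p = 1.08e-05) and Cfap100 by 7.28 ± 0.46 (edgeR adjusted p = 1.30e-05). The corpus libraries held 2 to 3 UMIs of Cfap54 and 1 of Cfap100 each, so the size of both falls depends on the prior count of the fit. Cfap58 stood at 7.44, 7.93 and 8.17 in the caput, 1.79, 1.45 and 0.644 in the corpus and 0 in all 3 cauda libraries. For each of the 3 genes the caput libraries lay above all others.

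Tekt5 was one of 5 genes highest in the corpus in principal cells, with Cfap52, Dnah12, Fam183b and Tekt3. It stood at 30.8, 39.4 and 41.6 there, against 0.325 to 1.27 in the caput and 3.02, 9.02 and 5.68 in the cauda (log2 5.76 ± 0.57 between corpus and caput, edgeR adjusted p = 0.000277). In the cauda Cfap44 was highest (14.2, 10.1 and 9.14, against 0.725 to 3.89 elsewhere), and so was Rsph1 (24.6, 28.6 and 29.1, against 8.46 to 9.38 in the caput and 12.5 to 17.3 in the corpus). Both sets of cauda values lay above the rest. Cfap53, a microtubule inner protein, was low in the corpus, at 22.5, 27.7 and 25.3, and alike at the ends of the duct, at 79.7, 80.3 and 70.5 in the caput and 65.3, 74.0 and 79.6 in the cauda (cauda to corpus log2 1.69 ± 0.19, edgeR adjusted p = 0.000569), though its highest segment was the caput with TMM factors set to 1.

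Beside these, the non-epithelial cells of the same libraries (fibroblasts and myoid cells, macrophages, T and endothelial cells) held the same genes. They stood at 9.48, 15.7 and 14.9 CPM of Cfap54 in the caput, 7.77, 13.1 and 16.5 of Cfap100, and 12.2, 19.3 and 28.5 of Tekt5 in the corpus. In the segment where it was highest, 11 of the 25 called genes were higher in principal than in non-epithelial cells in all 3 libraries. This held for 2 of the 14 caput genes (Cfap54 and Dnah14), 4 of the 5 corpus genes and 5 of the 6 cauda genes. The same count was not made over all called genes, so these counts have no background and the segments were not compared. Tekt5 was 2.16-fold higher over pooled cells, Rsph1 2.04-fold, Cfap53 2.13-fold and Cfap44 2.02-fold, while Ccdc153, Tekt1 and Tmem212 were lower in principal cells in every caput library. Whether free RNA makes part of the segment differences in principal cells was not tested.

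**Figure D4:**
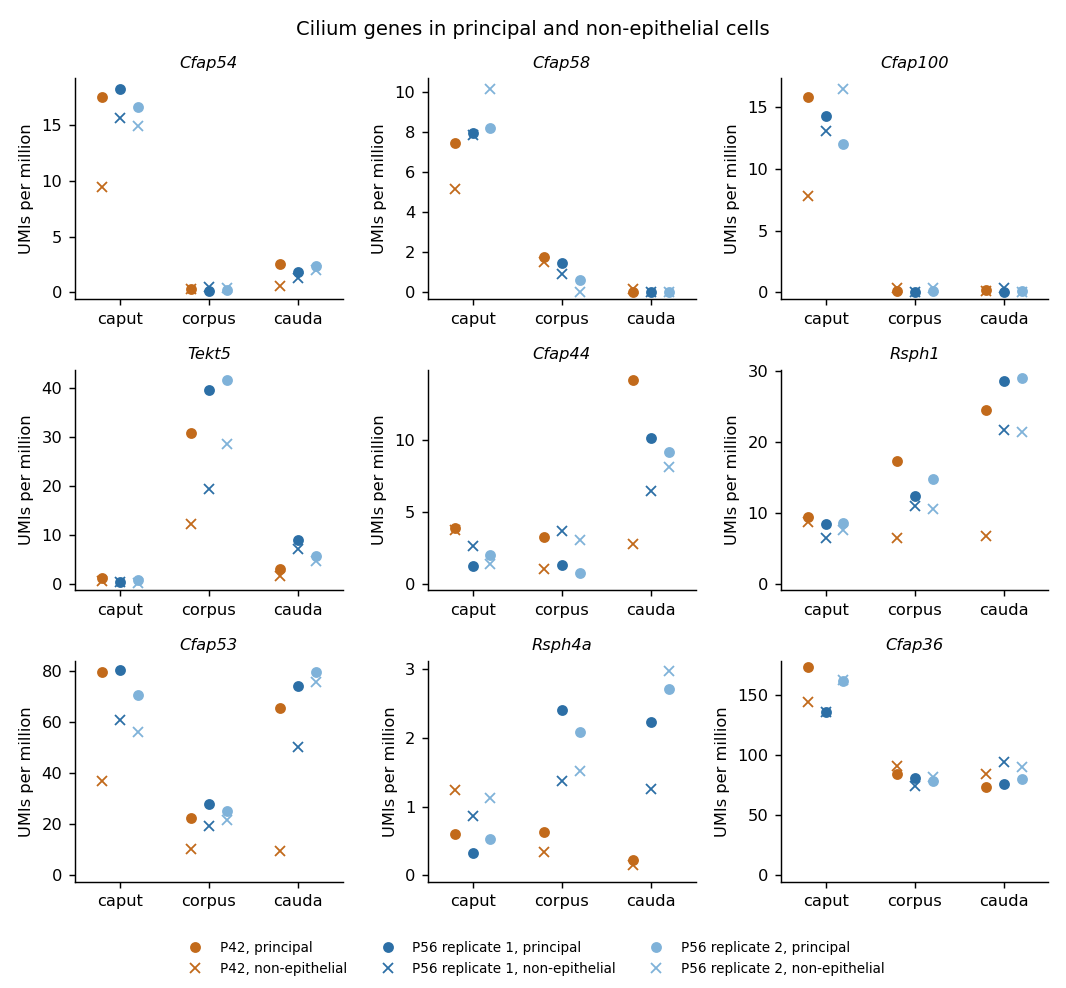
CPM of Cfap54, Cfap58, Cfap100, Tekt5, Cfap44, Rsph1, Cfap53, Rsph4a and Cfap36 in principal cells (circles) and in non-epithelial cells (crosses) of the 9 libraries, by segment. Cfap54, Cfap58 and Cfap100 are high in both kinds of cell in the caput, and Tekt5 in the corpus lies at 30.8 to 41.6 in principal cells, above the crosses at 12.2 to 28.5.

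With all cells of a library summed, 68 genes passed the filter and 38 were called, 35 of them highest in the caput, 2 in the corpus (Tekt5 and Cfap52) and 1 in the cauda (Cfap44). The background was 24.7% of 18523 genes called and 11.3% highest in the caput. Ccdc153 stood at 27.0, 3.90 and 13.3 CPM in the caput and at 0 to 0.106 in the other 6 libraries (log2 8.83 ± 0.63, edgeR adjusted p = 0.000158). Sntn stood at 18.7, 3.11 and 8.27 against 0 to 0.0530 (log2 8.72 ± 0.73, edgeR adjusted p = 0.000263). The caput lay above the other segments in every library for both. Outside the caput these genes were close to 0, so the size of the differences depends on the prior count of the fit. A gene that passed the filter through the caput alone had to differ, so the count of genes highest in the caput says little by itself. The order among the caput libraries, P42 above replicate 2 above replicate 1, was that of their shares of ciliated-like cells, 2.72%, 1.19% and 0.475%. Rsph6a, the sperm spoke gene, stood at 0.206, 0.349 and 1.37 in the caput, against 0 to 0.415 elsewhere, and the libraries overlapped although it was called (log2 4.31 ± 0.96, edgeR adjusted p = 0.0342). The count was 12 without the pool of P56 replicate 1 and 14 without that of replicate 2. The share of all genes called in these fits is not given, so both counts have no background.

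Between the ages, no cilium gene passed the test in all sperm or in ciliated-like cells. In ciliated-like cells 48 genes were tested and edgeR, with 1 residual degree of freedom, called 0 (background 0.918%), with 1 at an unadjusted p under 0.05, and DESeq2 called 0. That gene was Rsph9, with 63.2 at P42 and 59.1 and 126 at P56, which overlapped (log2 0.82 ± 0.41, edgeR adjusted p = 0.651). In sperm 45 genes entered the test in each segment, and both edgeR and DESeq2 called 0. By edgeR, 3 had an unadjusted p under 0.05 in the caput, 0 in corpus and 0 in cauda. In cauda sperm 49 of all the cilium genes had no UMI, among them Tekt1, Tekt3, Dnah8 and Dynlrb2. Where such genes were among the 45, their outcome in the cauda was fixed. Others there rested on few UMIs, such as 1 of Tekt5 and 3 of Cfap45. The 0 calls in the cauda therefore say nothing about the genes without a UMI and little about these others. The background was 0.0365%, 0.329% and 2.44% of all genes in the 3 segments. Within Prm2-led sperm alone, edgeR called 1 of 8 genes in the corpus, beside 7.57% of all genes. There was 1 pool at P42, and in simulated data with a log2 change of 2 the test found 4.5% of changed genes in caput sperm, 45.5% in corpus sperm, 10% in cauda sperm and 61% in ciliated-like cells, so most changes of this size would be missed in sperm of every segment. In cauda sperm 1 library of each age was left (62 and 12 sperm), and the spread came from the other segments.

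Principal cells of the cauda had 8 of 59 genes called by edgeR's quasi-likelihood test, beside 22.0% of all genes, and 7 of the 8 were higher at P56, beside 8.65%. Rsph4a stood at 0.216 at P42 and at 2.23 and 2.72 at P56 (log2 4.27 ± 0.78, edgeR adjusted p = 0.00250), but the P42 value is 1 UMI, so the size of this difference depends on the prior count of the fit. Tekt5 stood at 3.02 against 9.02 and 5.68 (log2 2.10 ± 0.46, edgeR adjusted p = 0.00687). Tekt4 stood at 1.08 against 2.45 and 2.52. Dnah1, an inner arm heavy chain, was the 1 gene lower at P56, with 1.29 against 0.0557 and 0. In non-epithelial cells of the cauda Rsph4a was at 0.155, 1.26 and 2.98, so it was lowest at P42 there as well. The age model takes the 3 segments of a pool as independent, although they come from the same mice, so its p-values may be too small.

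With cells of at least 3000 UMIs 2 genes were called (Rsph4a and Tekt5), beside 12.6% of all genes, and DESeq2 called 5, beside 16.5%. Most of the 8 cauda calls also depended on the scaling of the libraries. TMM, which sets factors so that the middle of all genes does not move, gave factors of 1.35 to the P42 cauda and 0.738 and 0.793 to the P56 cauda. With the factors set to 1 the median log2 difference of all genes was -0.77 in place of 0.00. Then 7 genes were called, beside 5647 of all genes tested (4023 with TMM). Of the 7, Rsph4a (log2 3.48, edgeR adjusted p = 0.0104) and Tekt5 (1.28, adjusted p = 0.0390) were still higher at P56. The other 5 were lower (Dnah1, Cfap45, Cfap299, Dnah7a and Tekt2), and Cfap53, Rsph1, Cfap298, Cfap126 and Tekt4 were no longer called. In CPM Cfap53 was at 65.3 against 74.0 and 79.6 and Rsph1 at 24.6 against 28.6 and 29.1, with no overlap.

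In the corpus 1 of 59 genes was called in principal cells, Rsph4a again (0.631 at P42, 2.40 and 2.09 at P56, log2 2.32 ± 0.51, edgeR adjusted p = 0.0337), beside 3.89% of all genes. It was not called with factors set to 1 (edgeR adjusted p = 0.0582) or by DESeq2. Leaving out a P56 replicate left 1 library per segment and age, so the call has no check of that kind. In the caput edgeR called 0 of 59 (background 0.852%), 8 had an unadjusted p under 0.05, and DESeq2 called 0. With factors set to 1, Sntn and Tmem212 were called there, with log2 differences of -2.11 and -1.73, beside 351 of all genes tested (156 with TMM). The 3 caput libraries also held 2.72%, 0.475% and 1.19% ciliated-like cells, and the part of these in the principal cell values was not tested. The median of all genes was -0.29 in the caput and -0.47 in the corpus with factors set to 1, and 0.00 and 0.01 with TMM.

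Other genes of the cilium were read from the same fits, and some of them, such as Ccdc39 and Ldhc, were also markers used to name clusters. As for the 73 genes, 30.1% of all genes were called in sperm and 19.2% were highest in the caput, and a gene that passed the filter through caput sperm alone had to differ. In sperm, 10 of 12 tested genes of dynein arm assembly and docking were called, all highest in the caput, among them Dnaaf1, a factor that assembles dynein arms before they enter the cilium (log2 6.39 ± 0.80, edgeR adjusted p = 1.68e-05). Of 10 tested genes of the axonemal ruler and central pair, 9 were called and all were highest in the caput, among them Ccdc39, a part of the molecular ruler along the doublets (edgeR adjusted p = 0.000112). Of 17 sperm tail accessory genes 10 were called with the highest level in the caput and 1 in the cauda, and Ropn1l, a protein of the fibrous sheath, was among those highest in the caput (log2 7.12 ± 0.72, edgeR adjusted p = 1.58e-06).

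Of 10 regulators that start ciliogenesis 1 was tested in sperm and was not called. In principal cells, where 33.8% of all genes were called, 2 of 7 were called, Myb (log2 3.49 ± 0.37, edgeR adjusted p = 0.000472) and Mcidas (1.30 ± 0.33, adjusted p = 0.0154), both highest in the corpus. In principal cells the ruler and central pair genes had 10 of 13 called, 6 highest in the caput, 3 in corpus and 1 in cauda, and the assembly and docking genes 5 of 16. Zmynd10, another assembly factor, was highest in the corpus there (log2 4.06 ± 0.27, edgeR adjusted p = 5.08e-05). Between the ages, some sperm tail genes were called in sperm: 4 of 18 were lower at P56 in the corpus (Odf1, Akap4, Odf2 and Tcp11), beside 0.329% of all genes called, and 6 of 18 in the cauda (Gapdhs, Tcp11, Odf2, Odf1, Smcp and Akap4), beside 2.44%. The cauda calls set 1 library of 62 sperm against 1 of 12, with the spread taken from the other segments, so they have no replicate check in the cauda. Akap4, Tcp11 and Gapdhs were also called lower at P56 in principal cells of the cauda, where Tcp11 stood at 5.39 CPM at P42 and at 0.0557 and 0.494 at P56. Ropn1l was called higher at P56 there, at 17.2 against 29.4 and 30.2, and these were the 4 called of 17 tested, beside 22.0% of all genes. The difference between these genes and the 73 was not tested. The 3 cauda libraries held 62, 7 and 12 sperm. Over all libraries Tcp11 stood at 3.07 CPM in principal cells, 5.38 in macrophages and 7.25 in T cells. The part of free RNA in these principal cell values was not tested. In ciliated-like cells Smcp, a protein of sperm mitochondria and itself a sperm marker, stood at 10.8 CPM at P42 and at 13.1 and 130.6 at P56. It was called (log2 3.12 ± 0.56, edgeR adjusted p = 2.58e-05, 1 residual degree of freedom), but P56 replicate 1 was close to P42 and the call rests on replicate 2. The summed sperm markers stood apart in the same library, at 33.9, 32.8 and 443 CPM, and their part in this result was not tested.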

How the data were processed

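The data were 9 libraries of single-cell RNA-seq. For trimming the authors used fastp, for barcodes and UMIs umi_tools, for mapping to GRCm38.p6 STAR 2.7.3a and for exons featureCounts. They deposited raw UMI counts per gene and cell, and all values were whole numbers.

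From these counts, cells were clustered by the Leiden method (resolution 1) on 3000 variable genes without the members, using Python 3.11.15 with scanpy 1.11.5 and leidenalg 0.10.2. A cluster took the name of the list with the largest share of markers at least 2-fold above the other cells, if at least 50% and 3 markers were. The rest were named principal where 3 principal markers were at least 1.5-fold above the other types, unless immunoglobulin genes led. Both rules were set after the data were seen. Scrublet marked 3 of 42087 cells, so it did not work here and removed none. UMIs were summed per library and population (at least 10 cells) and tested with edgeR 4.0.16 in R 4.3.3: filterByExpr, TMM, glmQLFit and glmQLFTest, with Benjamini-Hochberg adjustment over all genes tested and a log2 limit of 1. DESeq2 1.42.0 was an alternative. Segments were tested with the pool as a block, as each pool of mice gave 3 segments. Deviations from segment means correlated at 0.145 to 0.736 (median 0.443) in the 9 same-pool pairs. Of the 18 other pairs, 4 were over 0.1, all of them between the P56 pools. Such deviations also hold the difference between the ages, so they do not show how segments of a pool vary together apart from age. Ages were tested within a segment in a model with 1 mean per segment and age. It takes the segments of a pool as independent although they come from the same mice, so its p-values may be too small. P-values of the segment tests with the block measure how segment differences varied between pools of mice. Those of the age tests take their spread from the P56 replicates alone, as there was 1 pool at P42.

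Named genes were the 6 named singly, the 10 most abundant in ciliated-like cells and in sperm, the 8 with the largest and smallest ratio between these, called genes (at most 8 a direction), the 8 most abundant in epithelial cells, the Rsph, Tekt and outer arm Dnah paralogs, and up to 6 called genes of each other list. Others were named after their values were seen. Members and lists were chosen with earlier results of these data known. Counts were simulated with a log2 change of 2 in 200 genes and a dispersion of 0.05. On these edgeR recovered 83.5% of changed genes between segments in sperm, 93.5% in principal cells and 94.5% with all cells summed. Between ages it recovered 59%, 47.5% and 48% in principal cells of caput, corpus and cauda.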

Additional observations from a re-analysis of the deposited data

Results flagged for a closer look

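In principal cells the difference between P56 and P42 was not the same in all segments for 6 of 59 genes, by a test of the difference between segments within edgeR's quasi-likelihood fit at an adjusted p under 0.05 with no limit on the log2 value, beside 18.8% of all genes. Of the 6, 2 (Rsph4a and Tekt5) differed by a log2 value of at least 1. The test takes the segments of a pool as independent, although they come from the same mice, so its p-values may be off. The log2 change from P42 to P56 in the cauda minus that in the caput was 4.49 for Rsph4a (edgeR adjusted p = 0.0173), 3.13 for Tekt5 (0.0207), 0.88 for Rsph1 (0.0475), 0.83 for Cfap36 (0.0171), 0.82 for Cfap53 (0.0440) and 0.65 for Cfap20 (0.0450). Rsph4a, with 1 UMI in the P42 cauda, changed by 4.27 in the cauda and -0.22 in the caput, and Tekt5 by 2.10 and -1.02. With TMM factors set to 1, the differences of Rsph4a (3.99, edgeR adjusted p = 0.0367) and Tekt5 (2.60, adjusted p = 0.0227) were still past the threshold. Those of the other 4 were 0.13 to 0.37 (adjusted p = 0.466 to 0.784), and whether the scaling or a change in these genes gives the main values was not tested. Between cauda and corpus edgeR called 0 of 59 genes (4.64% of all genes) and between corpus and caput 0 (0.284%).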

How the results depend on the processing

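The alternatives that left out a pool, changed the tool, the filter, the block, the clusters or the mitochondrial genes were planned, and those on single sperm clusters, cells of at least 3000 UMIs and TMM factors of 1 were chosen after seeing the data. Over the named genes and all settings, 870 values kept their sign and their side of the threshold (a segment difference is highest minus lowest and has no sign to lose), 162 lost the call and 3 shares of cells moved. Without the pool block, 27 genes were called in sperm, 27 in principal cells and 35 with all cells summed (main 28, 25 and 38), so the pairing of segments changed no count by more than 1.5 times. Leaving out a pool gave 13 to 24 genes in sperm (13 without P42), 14 to 31 in principal cells (14 and 15 without P56 replicates 1 and 2) and 12 to 51 with all cells summed (12 and 14 without these replicates). The shares of all genes called without the block or without a pool are not given, so these counts have no background. Between ages, leaving out a P56 replicate left at most 1 library per segment and age, so counts of called genes are not given for it. Prm2-led sperm alone gave 2 of 8 genes between segments (16.3% of all genes) and 1 of 8 between ages in the corpus (7.57%). Ldhc-led sperm alone with no replicate block gave 0 of 29 between segments (3.36%). Taking Ldhc-led sperm in place of all sperm moved the genes at least 2-fold higher in ciliated-like cells from 27 to 15 and in sperm from 11 to 20, but it also left out the P42 caput, without which all sperm gave 25 and 13. In principal cells between ages, no filter on low counts gave 2 genes in the caput and 3 in the corpus, TMM factors of 1 gave 2 in the caput, DESeq2 gave 0 in the corpus and 5 in the cauda (main 8), and cells of at least 3000 UMIs gave 2 in the cauda (Rsph4a and Tekt5). The causes were not tested. Not fitted for lack of libraries or residual degrees of freedom were caput sperm ages with Prm2-led cells alone, cauda sperm ages without P56 replicate 2 or with the members kept in the clustering, and ciliated-like ages without either P56 replicate. Cauda sperm (62 and 12 cells in 2 libraries) and 23 ciliated-like cells in P56 replicate 1 limit the depth.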
